A study of Homo sapiens with 12 samples.

Results

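In all, 10 surface genes through which B cells meet T cells and survival ligands were followed in lymphoma cells after induction of a guide RNA against PRMT5: CD80, CD86, CD40, CD70, CD58, CD48, ICAM1, TNFRSF13B, TNFRSF13C and TNFRSF17. They were taken by symbol from the 2 deposited FPKM tables, 1 per cell line; all 10 were present among the 25369 rows of each, and all 10 reached the mean of 1 FPKM (fragments per kilobase of transcript, scaled to the mapped fragments of the library) required for testing in both lines. The lines were OCI-Ly7, a human diffuse large B cell lymphoma line of germinal centre B cell-like type, and TMD8, a line of activated B cell-like type. In every group the cells held a guide RNA, induced by doxycycline, that targets PRMT5, a protein arginine methyltransferase. The groups were OCI-Ly7 cells after 0, 3 and 6 days with 20 ng/ml doxycycline and TMD8 cells after 0, 3 and 6 days with the same dose, with 2 RNA-seq libraries each (12 libraries in 6 groups). No library with doxycycline and a guide against nothing was analysed here, so the guide, doxycycline itself and time in culture cannot be told apart. In these bulk libraries, fewer cells with a transcript and less of it per cell cannot be told apart either. The labels do not say whether the 2 libraries of a group came from separate cultures, so p-values measure the spread between these libraries, which may be technical. RNA was measured, not protein at the cell surface.

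CD80 and CD86 are the B7 ligands that a B cell presents to CD28 and CTLA-4 on T cells, and CD40 is the receptor through which helper T cells signal back to the B cell. CD58, CD48 and ICAM1 are adhesion ligands that steady this contact by binding CD2, CD244 and the integrin LFA-1. CD70 is the ligand of CD27. TNFRSF13C (the BAFF receptor) binds the survival cytokine BAFF, and TNFRSF13B (TACI) and TNFRSF17 (BCMA) bind both BAFF and the survival cytokine APRIL. The balance of the 3 receptors shifts as B cells mature towards plasma cells. CD40 and the BAFF and APRIL receptors belong to the TNF receptor family and signal through TRAF adaptor proteins towards NF-κB.

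The promoters of members that changed in at least 1 comparison below and that hold a match to a motif tied to this pathway or to basal promoters are shown first. RefSeq promoter sequences (GRCh38.p14) were found for 6 of the 10 members, with 7 start sites; CD40, CD70, TNFRSF13C and TNFRSF17 were not matched. The 250 bases before the start site were searched on both strands for the GC box GGGCGG, the E-box CACGTG and the NF-κB consensus (κB consensus). The κB consensus was searched as GGGRNNYYCC, where R is A or G, Y is C or T and N is any base. The lines below run 5′ to 3′ on the strand of the gene, and the capitals mark GC boxes in TNFRSF13B and CD58 and the κB consensus in CD86.
TNFRSF13B, chr17:16972119-16972368, minus strand: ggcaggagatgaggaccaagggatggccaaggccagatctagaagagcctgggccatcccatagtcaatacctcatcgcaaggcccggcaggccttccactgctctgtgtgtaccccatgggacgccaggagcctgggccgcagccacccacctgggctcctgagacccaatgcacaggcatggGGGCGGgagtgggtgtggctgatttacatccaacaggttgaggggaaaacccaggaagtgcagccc
CD58, chr1:116571027-116571276, minus strand: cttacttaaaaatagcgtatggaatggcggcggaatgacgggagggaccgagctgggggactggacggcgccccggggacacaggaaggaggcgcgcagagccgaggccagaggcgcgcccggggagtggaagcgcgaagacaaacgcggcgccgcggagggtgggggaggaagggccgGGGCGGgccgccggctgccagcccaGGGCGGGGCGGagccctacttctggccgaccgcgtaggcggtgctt
CD86, second start site, chr3:122077534-122077783, plus strand: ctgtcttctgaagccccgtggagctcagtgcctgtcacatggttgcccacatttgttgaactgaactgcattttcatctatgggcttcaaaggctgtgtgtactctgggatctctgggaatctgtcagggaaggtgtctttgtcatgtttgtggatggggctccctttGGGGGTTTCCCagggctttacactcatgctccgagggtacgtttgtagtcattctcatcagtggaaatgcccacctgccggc
The κB match of CD86 lay 82 to 72 bases before the start site, as a pair of overlapping matches, and was present at 1 of the 7 member start sites, against 9.96% of the 35116 promoters of the table. A GC box was found before 3 of the 7 start sites (CD58, ICAM1 and TNFRSF13B), against 42.6% of all promoters. No member start site held the E-box, against 6.34% of all promoters. A κB-like sequence that departs from the pattern by a base, such as tggaaattcc before ICAM1, was not counted. These matches describe letters in a window and are no evidence of binding, and a missing match is no evidence against it.

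The libraries differed in ways that touch every value below. FPKM sums were 397477 to 467844, with 10092 to 11021 genes at or above 1 FPKM. Read counts are not used here, so absolute depth is unknown. Relative depth, read from the steps between small values with the first day 0 library of a line set to 1, was 0.768 to 0.908 in OCI-Ly7 and 0.543 to 0.737 in TMD8 at days 3 and 6, and 1.3 and 1.18 in the second day 0 library of OCI-Ly7 and of TMD8. RNA45S5, the ribosomal RNA precursor, stood at 14278 to 20542 FPKM at days 3 and 6 against 10374 and 11163 FPKM at day 0 in OCI-Ly7, and at 17581 to 20452 FPKM against 5222 and 7950 FPKM in TMD8. FPKM is a share of all fragments, and the median log2 change over all tested genes relative to day 0 was -0.12 (day 3) and -0.13 (day 6) for OCI-Ly7 and -0.27 (day 3) and -0.31 (day 6) for TMD8. Each change is therefore given on FPKM as deposited and after median-ratio scaling, which sets that median close to 0; what part RNA45S5 has in the shift was not tested. PRMT5 itself had 37.9 and 46.9 FPKM at day 0, 29.3 and 32.1 FPKM at day 3 and 21.0 and 19.2 FPKM at day 6 in OCI-Ly7, where it fell at day 6 (log2 change -1.04, adjusted p = 0.0345; -0.89 after scaling, adjusted p = 0.0284). It had 64.8 and 60.5 FPKM, then 41.3 and 42.0, then 49.6 and 54.7 in TMD8, where it fell at both days as given (-0.58 and -0.26) but passed at neither after scaling (-0.28, adjusted p = 0.147, and 0.10, adjusted p = 0.201). B cell markers summed to 755 to 1250 FPKM in OCI-Ly7 and 472 to 654 FPKM in TMD8. At day 6, 1 of 6 B cell markers was higher in OCI-Ly7 (2 after scaling), and 5 of 5 tested were lower in TMD8 (2 after scaling); their part in the results below was not tested. T and NK cell markers summed to at most 0.766 FPKM and myeloid markers to at most 0.383 FPKM in any library, with CD3D, CD3E, CD3G and LYZ at 0 in all 12. The stromal and epithelial list summed to 9.81 to 11.4 FPKM in OCI-Ly7, led by EPCAM at 3.9 to 5.91 FPKM, and to 1.15 to 1.93 FPKM in TMD8; neither of the 2 genes tested in OCI-Ly7 passed at day 6, and none was tested in TMD8.

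The order of these surface transcripts by level differed between the lines before induction. In OCI-Ly7 at day 0 the order of FPKM levels was TNFRSF17, CD40, ICAM1, CD86, CD70, TNFRSF13B, TNFRSF13C, CD80, CD48 and CD58. In TMD8 at day 0 it was CD70, TNFRSF13B, CD86, CD48, CD40, ICAM1, CD58, CD80, TNFRSF13C and TNFRSF17. TNFRSF17, the receptor typical of plasma cells, led in OCI-Ly7 with 68.5 and 76.0 FPKM and came last in TMD8 with 2.04 and 1.39 FPKM, a ratio of means of 42.1. CD70 led in TMD8, and its mean there was 5.95 times that of OCI-Ly7; CD48 was 4.78 times and TNFRSF13B 2.92 times as high in TMD8. Neighbours whose libraries overlapped at day 0 were CD86 and CD70, TNFRSF13C and CD80, CD80 and CD48, and CD48 and CD58 in OCI-Ly7, and TNFRSF13B and CD86, and CD58 and CD80 in TMD8. Over all days the ranges of the lines overlapped for CD40 and CD80. Levels were set side by side across separately made tables and were not tested between the lines.

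**Figure D1:**
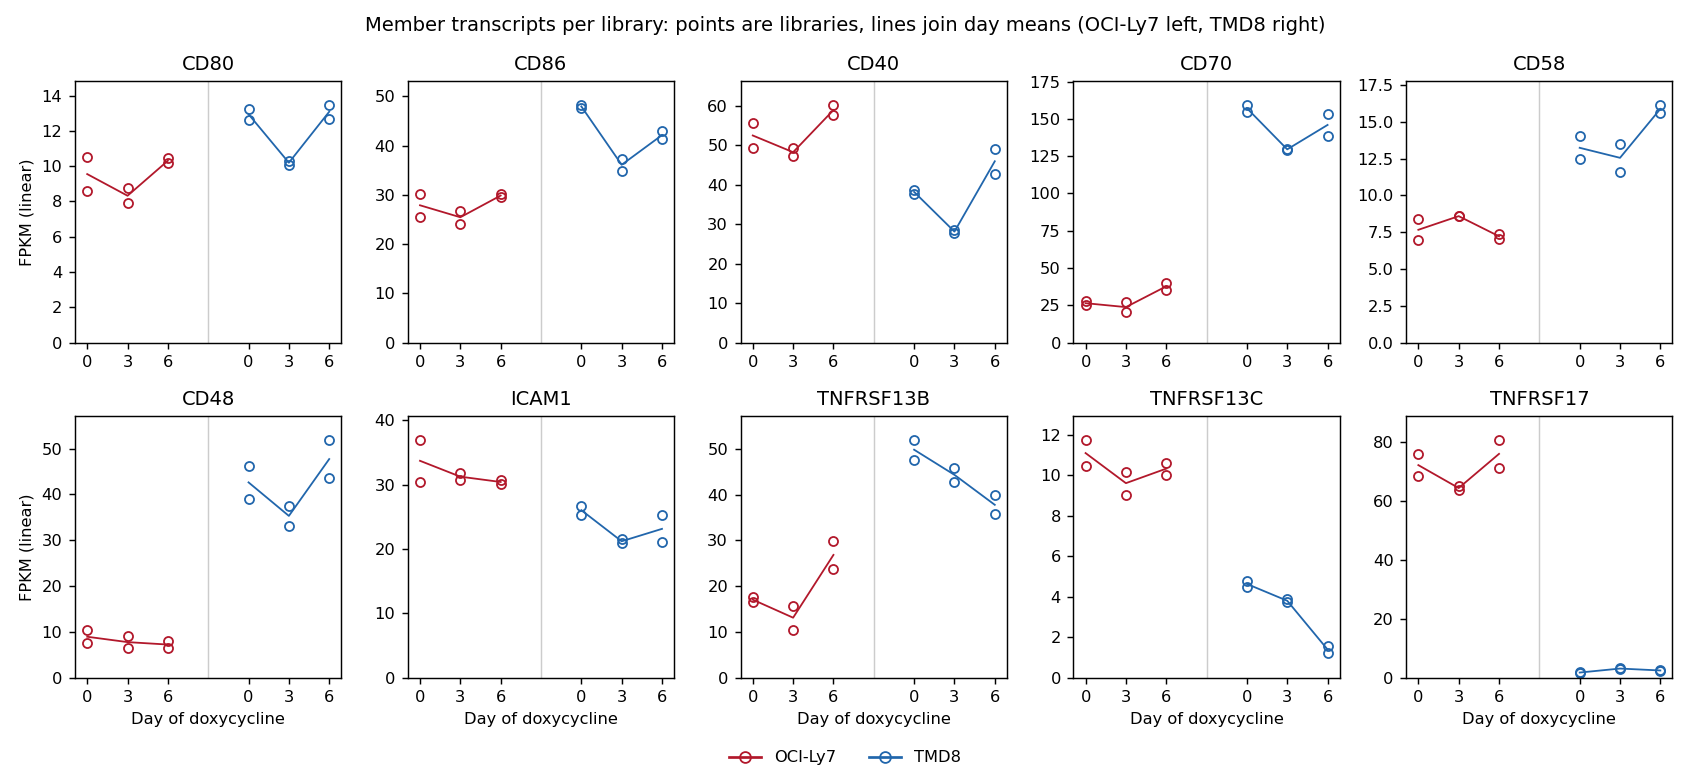
FPKM of each member (linear axis from 0) in every library by day of doxycycline, OCI-Ly7 in red on the left and TMD8 in blue on the right of each panel; points are libraries and lines join the means of 2. TNFRSF13C falls below 1.6 FPKM in both TMD8 libraries of day 6 and stays between 9.03 and 11.7 FPKM in OCI-Ly7, while TNFRSF13B is highest at day 6 in OCI-Ly7 and lowest at day 6 in TMD8.

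The order of the members by level shifted with time in both lines. In OCI-Ly7 TNFRSF17 and CD40 held the first places on all days, and CD70 took the third place at day 6, against the fifth at day 0. In TMD8 CD70 stayed first, CD48 took the second place at day 6, against the fourth at day 0, CD40 the third, against the fifth, and TNFRSF13B the fifth, against the second. At day 6 in TMD8 the libraries of CD48 (43.5 to 51.9 FPKM) overlapped with those of CD40 (42.8 to 49.0 FPKM). Those of CD40 overlapped with those of CD86 (41.3 to 42.9 FPKM), so the order of CD48, CD40 and CD86 there is within the spread of the libraries. TNFRSF13C was the lowest member in TMD8 at day 6, where it lay at the 7.59th percentile of the genes tested in the line, against the 26.5th at day 0. The libraries of a day agreed closely for most members: the log2 ratio between them was at most 0.583 in size, the largest being TNFRSF13B in OCI-Ly7 at day 3, and TNFRSF17 in TMD8 at day 0 reached 0.55 at levels near 2 FPKM.

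How many members changed depended on the line, the day and the scaling. Tests used limma on log2(FPKM + 1), with p-values adjusted by Benjamini and Hochberg over all genes tested and a threshold of 0.05. In OCI-Ly7 no member passed at day 3, where 0.145% of 11016 genes did, and none after scaling, where 0.118% did; by limma 0 of 10 members had an unadjusted p under 0.05 in either case, against 755 of all genes as given and 543 after scaling. At day 6 none of the 10 passed in OCI-Ly7 on FPKM as given, against 11.4% of all genes, and 2 had an unadjusted p under 0.05, against 3766 of 11016 genes; after scaling CD70 and TNFRSF13B passed, both higher, against 14.8%. Between day 6 and day 3 none passed in OCI-Ly7 on FPKM as given, against 0.218%, with 3 members and 2895 of 11016 genes under an unadjusted p of 0.05, and the same CD70 and TNFRSF13B passed after scaling, against 8.75%. In TMD8, 5 members passed at day 3, TNFRSF17 higher and CD40, CD70, CD80 and CD86 lower, against 43% of 10456 genes; none passed after scaling, against 0.22%, and 1 had an unadjusted p under 0.05, against 1321 of 10456 genes. At day 6, 3 members passed in TMD8, CD40 higher and TNFRSF13B and TNFRSF13C lower, against 55.6%; after scaling 5 passed, CD40, CD80, CD58 and TNFRSF17 higher and TNFRSF13C lower, against 28.9%. Between day 6 and day 3 CD40 and CD80 were higher and TNFRSF13C lower in TMD8 under both scalings, 3 of 10 members against 7.84% of genes as given and 11.7% after scaling. The median change of the 10 members at day 6 was 0.09 in OCI-Ly7 against -0.13 for all genes, and -0.05 in TMD8 against -0.31. As given, libraries did not overlap with day 0 for 87.3% (day 3) and 81.2% (day 6) of genes in TMD8. Of these TMD8 genes, 8766 and 7671 lay lower. In OCI-Ly7 the shares were 45.7% and 69.3%. After scaling they were 51.1% and 71.1% in TMD8, and 39.2% and 66.6% in OCI-Ly7. Day 6 and day 3 stood apart as given for 58% of genes in TMD8 and 56.1% in OCI-Ly7. Members whose days do not overlap are to be read beside these shares.

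**Figure D2:**
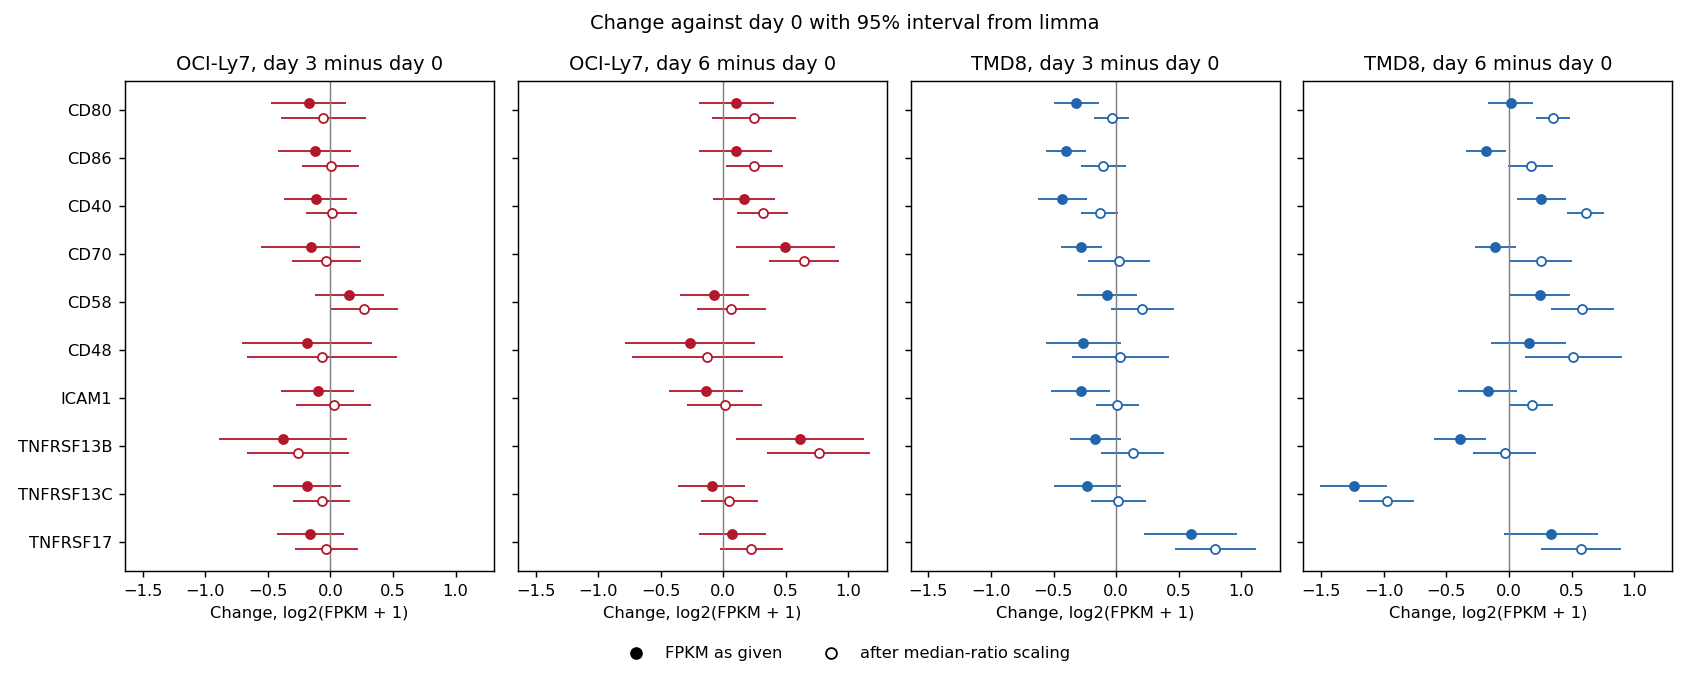
Change of each member on log2(FPKM + 1) at days 3 and 6 minus day 0, with 95% intervals from limma, OCI-Ly7 in red on the left and TMD8 in blue on the right; filled points are FPKM as given and open points follow median-ratio scaling. Scaling moves all members to the right, by about as much as the median of all genes, and TNFRSF13C at day 6 in TMD8 is the lowest point under both.

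Both B7 ligands fell at day 3 in TMD8 on FPKM as given, when 4335 of all 10456 genes fell and 157 rose, and neither did after scaling. CD80 (chromosome 3) had 8.61 and 10.5 FPKM at day 0, 7.89 and 8.76 FPKM at day 3 and 10.4 and 10.2 FPKM at day 6 in OCI-Ly7, days whose libraries overlapped except day 6 with day 3. It had 13.2 and 12.6 FPKM at day 0, 10.1 and 10.3 FPKM at day 3 and 12.7 and 13.5 FPKM at day 6 in TMD8, where both libraries of day 3 lay below those of the other days. CD80 fell in TMD8 at day 3 (log2 change -0.32, SE 0.073, adjusted p = 0.027) and was higher at day 6 than at day 3 (0.33, SE 0.073, adjusted p = 0.0498). After scaling the day 3 change was -0.04 (adjusted p = 0.83), and CD80 was higher at day 6 than at day 0 (0.35, SE 0.055, adjusted p = 0.0123), against 0.01 as given (adjusted p = 0.876). CD86 (chromosome 3) had 25.6 and 30.2 FPKM, then 26.8 and 24.1, then 30.1 and 29.6 in OCI-Ly7, and 48.3 and 47.6, then 37.4 and 34.8, then 42.9 and 41.3 in TMD8. The days of OCI-Ly7 overlapped against day 0, whereas in TMD8 each day stood apart from the others. CD86 fell in TMD8 at day 3 (-0.40, SE 0.065, adjusted p = 0.0212), a change of -0.10 after scaling (adjusted p = 0.603). Its day 6 change against day 0 had opposite signs, -0.18 as given (adjusted p = 0.053) and 0.17 after scaling (adjusted p = 0.126). Neither ligand passed in OCI-Ly7 under either scaling. The calls of CD80, CD86, CD40, CD70 and TNFRSF17 at day 3 in TMD8 were lost on leaving out any 1 library of day 0 or day 3 (adjusted p 0.0666 to 0.161), and that of CD80 between day 6 and day 3 was lost on leaving out any 1 of the 6 libraries (adjusted p 0.075 to 0.206). CD80 shares 798 of 3201 exon bases with TIMMDC1 on the opposite strand (GENCODE v29), which had 38.9 to 59.5 FPKM in the 12 libraries, and use of strand in counting is not stated in the sources used here.

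CD40 had the largest rise of the 10 members in TMD8 between day 3 and day 6. CD40 (chromosome 20) had 38.7 and 37.6 FPKM at day 0, 27.6 and 28.5 FPKM at day 3 and 42.8 and 49.0 FPKM at day 6 in TMD8, so that no 2 days overlapped. It fell at day 3 (log2 change -0.43, SE 0.081, adjusted p = 0.0214), and at day 6 it was higher than at day 3 (0.69, SE 0.081, adjusted p = 0.017) and than at day 0 (0.26, SE 0.081, adjusted p = 0.0366). After scaling, day 6 stood at 0.61 over day 0 (SE 0.059, adjusted p = 0.00491) and at 0.74 over day 3 (SE 0.059, adjusted p = 0.0107), while day 3 was at -0.13 against day 0 (adjusted p = 0.443). The mean at day 6 was 1.20 times that of day 0 as given and 1.55 times after scaling. In OCI-Ly7 CD40 had 49.3 and 55.6 FPKM, then 49.3 and 47.1, then 60.2 and 57.5, with day 6 above both other days. That day 6 change did not pass (0.17, SE 0.101, adjusted p = 0.295 as given; 0.32, SE 0.080, adjusted p = 0.0569 after scaling). Of the 6 fits that left out 1 TMD8 library, the call at day 6 against day 0 held only without the first day 6 library (adjusted p = 0.0198; 0.0612 to 0.13 without each of the others). Against day 3 it was lost without either day 3 library (adjusted p = 0.0981 and 0.0878). CD40LG, the ligand of CD40, was listed at 0 in all 12 libraries.

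CD70 was the highest member in TMD8 and rose in OCI-Ly7 after scaling. CD70 (chromosome 19) had 25.0 and 27.8 FPKM at day 0, 27.2 and 20.4 FPKM at day 3 and 39.8 and 35.5 FPKM at day 6 in OCI-Ly7, where both day 6 libraries lay above the other 4. The day 6 mean was 37.7 ± 3.04 FPKM against 26.4 ± 1.95 FPKM at day 0 (SD, n = 2), a ratio of 1.43. On the log2 scale the change was 0.50 as given (SE 0.159, adjusted p = 0.0904) and 0.65 after scaling (SE 0.109, adjusted p = 0.0304). Against day 3 it was 0.66 as given (SE 0.159, adjusted p = 0.0975) and 0.68 after scaling (SE 0.109, adjusted p = 0.0386). In TMD8 CD70 had 155 and 159 FPKM, then 129 and 130, then 154 and 138, with day 3 below both other days. It fell at day 3 (-0.28, SE 0.068, adjusted p = 0.0296), a change of 0.03 after scaling (adjusted p = 0.939), and at day 6 it stood at -0.11 as given (adjusted p = 0.211) and 0.25 after scaling (adjusted p = 0.109). CD27, the receptor of CD70, fell in OCI-Ly7 over the same days: it had 46.5 and 50.9 FPKM at day 6 against 68.6 and 75.4 FPKM at day 0 (-0.56, SE 0.105, adjusted p = 0.0376; -0.40 after scaling, adjusted p = 0.0448). In TMD8 CD27 did not exceed 1.69 FPKM and fell as given only (-0.41, adjusted p = 0.0293; -0.20 after scaling, adjusted p = 0.275).

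Among the adhesion ligands, CD58 was higher in TMD8 at day 6 after scaling. With all libraries kept, CD48 and ICAM1 passed in no comparison under either scaling. CD58 (chromosome 1) had 12.5 and 14.0 FPKM at day 0, 13.5 and 11.6 FPKM at day 3 and 15.6 and 16.2 FPKM at day 6 in TMD8, with day 6 above the other days. Its day 6 change was 0.25 as given (SE 0.099, adjusted p = 0.0734) and 0.59 after scaling (SE 0.101, adjusted p = 0.0148). In OCI-Ly7 CD58 had 6.95 and 8.38 FPKM, then 8.57 and 8.62, then 7.39 and 7.05, and its day 6 change was -0.07 (adjusted p = 0.683), or 0.06 after scaling (adjusted p = 0.699). CD48 (chromosome 1) had 7.53 and 10.3 FPKM, then 6.43 and 9.06, then 7.91 and 6.50 in OCI-Ly7, where all days overlapped. It had 39.0 and 46.2 FPKM, then 37.4 and 33.2, then 51.9 and 43.5 in TMD8, and day 6 overlapped with day 0. Among members at day 6 on FPKM as given, the widest interval was that of CD48 in OCI-Ly7, -0.78 to 0.26 around a change of -0.26. In TMD8 CD48 came closest to the threshold at day 6 after scaling (0.51, SE 0.156, adjusted p = 0.0586). ICAM1 (chromosome 19) had 30.4 and 37.0 FPKM, then 30.7 and 31.7, then 30.7 and 30.1 in OCI-Ly7, and 26.7 and 25.3, then 20.9 and 21.5, then 21.0 and 25.2 in TMD8. The days of OCI-Ly7 overlapped, and in TMD8 day 0 lay above the others. At day 3 in TMD8 ICAM1 had a change of -0.28 (SE 0.097, adjusted p = 0.0564), which was 0.01 after scaling (adjusted p = 0.974). At day 6 it had -0.14 in OCI-Ly7 (95% interval -0.43 to 0.15) and -0.17 in TMD8 (-0.41 to 0.07). The integrin chains of its receptor were low: ITGAL had 2.28 to 5.01 FPKM and ITGB2 had 2.70 to 5.22 FPKM over the 12 libraries. CD2 and CD244, the T and NK cell partners of CD58 and CD48, were listed at 0 in all 12. Antisense genes cover 976 of 3274 exon bases of CD48 and 815 of 3706 of ICAM1 in GENCODE v29, so reads of both strands cannot be told apart if counting ignored strand.

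The largest day 6 changes among the members were those of receptors for BAFF, TNFRSF13C in TMD8 and TNFRSF13B in OCI-Ly7. TNFRSF13C (chromosome 22) had 4.79 and 4.45 FPKM at day 0, 3.71 and 3.88 FPKM at day 3 and 1.20 and 1.57 FPKM at day 6 in TMD8, so that each day lay below the one before. The day 6 mean was 1.39 ± 0.266 FPKM against 4.62 ± 0.240 FPKM at day 0 (SD, n = 2), a ratio of 0.3 as given and 0.385 after scaling. TNFRSF13C fell against day 0 (log2 change -1.24, SE 0.11, adjusted p = 0.00167; -0.98, SE 0.088, adjusted p = 0.00459 after scaling) and against day 3 (-1.01, SE 0.11, adjusted p = 0.0151; -0.99, SE 0.088, adjusted p = 0.0109 after scaling). The fall against day 0 passed in all 6 fits that left out 1 library, with changes of -1.35 to -1.13; that against day 3 was lost without either day 3 library (adjusted p = 0.0856 and 0.0869). At day 3 its change was -0.23 as given (adjusted p = 0.12) and 0.02 after scaling (adjusted p = 0.961). In OCI-Ly7 TNFRSF13C had 11.7 and 10.4 FPKM, then 10.2 and 9.03, then 10.02 and 10.6, and its day 6 change was -0.09 (95% interval -0.36 to 0.18, adjusted p = 0.579).

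On FPKM as given, TNFRSF13B ended at the top of its range in OCI-Ly7 and at the bottom of it in TMD8. TNFRSF13B (chromosome 17) had 17.6 and 16.5 FPKM at day 0, 15.7 and 10.5 FPKM at day 3 and 29.9 and 23.8 FPKM at day 6 in OCI-Ly7, with both day 6 libraries above the rest. The day 6 mean was 26.8 ± 4.34 FPKM against 17.1 ± 0.764 FPKM at day 0 (SD, n = 2), a ratio of 1.57. Its change at day 6 was 0.62 as given (SE 0.206, adjusted p = 0.1) and 0.76 after scaling (SE 0.161, adjusted p = 0.0422), and against day 3 it was 1.00 as given (SE 0.206, adjusted p = 0.0885) and 1.02 after scaling (SE 0.161, adjusted p = 0.0386). In TMD8 TNFRSF13B had 52.0 and 47.7 FPKM, then 42.8 and 45.9, then 39.9 and 35.7, each day below the one before as given. After scaling, both day 3 libraries lay above those of day 0, and day 6 overlapped with day 0 and day 3. TNFRSF13B fell at day 6 on FPKM as given (-0.39, SE 0.084, adjusted p = 0.0111). After scaling the change was -0.03 (SE 0.101, adjusted p = 0.814), so the fall in TMD8 was not seen relative to the shift of all genes. The call as given was lost without the first day 0 library (adjusted p = 0.0731). In GENCODE v29 TNFRSF13B shares 615 of 3550 exon bases with the pseudogene TBC1D27P on the same strand, so reads there could be counted for either.

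TNFRSF17 was low in TMD8 and high in OCI-Ly7 on every day. It had 2.04 and 1.39 FPKM at day 0, 2.97 and 3.18 FPKM at day 3 and 2.11 and 2.73 FPKM at day 6 in TMD8, with day 0 below the other days. TNFRSF17 (chromosome 16) rose at day 3 on FPKM as given (0.59, SE 0.153, adjusted p = 0.0321), and at day 6 after scaling (0.57, SE 0.128, adjusted p = 0.0276). The day 3 change after scaling was 0.79 (SE 0.128, adjusted p = 0.114), and the day 6 change as given 0.34 (SE 0.153, adjusted p = 0.105). At these levels the pseudocount of 1 understates a fold change: the day 3 mean was 1.79 times that of day 0 as given and 2.23 times after scaling. In OCI-Ly7 TNFRSF17 had 68.5 and 76.0 FPKM, then 63.9 and 65.1, then 80.9 and 71.3, and its day 6 change was 0.07 (95% interval -0.20 to 0.34, adjusted p = 0.665). TNFSF13B (BAFF), a ligand of all 3 receptors, did not exceed 0.351 FPKM in any library. TNFSF13 (APRIL), a ligand of TNFRSF13B and TNFRSF17, had 2.83 to 6.42 FPKM in OCI-Ly7 and 0.578 to 2.01 FPKM in TMD8. TNFSF13 fell in TMD8 at day 6 on FPKM as given (-0.67, adjusted p = 0.0293), and did not pass after scaling (-0.46, adjusted p = 0.135).

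The day 6 changes of TNFRSF13C and TNFRSF13B differed between the lines under both scalings, that of CD70 on FPKM as given and that of CD58 after scaling. This was tested as the OCI-Ly7 change minus the TMD8 change, over 12 libraries and the 9688 genes that reached the mean of 1 FPKM in both lines. At day 3 no member passed, against 0.103% of genes as given and 0.0929% after scaling; by limma 2 members and 1026 of 9688 genes had an unadjusted p under 0.05 as given, and 1 member and 725 genes after scaling. The smallest p was that of TNFRSF17 (-0.76, SE 0.190, adjusted p = 0.331). At day 6, 3 of 10 members passed as given, all with a higher change in OCI-Ly7, against 24.7% of genes (1786 higher, 610 lower). The difference was 1.15 for TNFRSF13C (SE 0.15, adjusted p = 0.003), 1.01 for TNFRSF13B (SE 0.241, adjusted p = 0.0187) and 0.61 for CD70 (SE 0.18, adjusted p = 0.0398). After scaling over the 12 libraries 3 passed, against 32.7%: TNFRSF13C (1.07, SE 0.128, adjusted p = 0.00115), TNFRSF13B (0.84, SE 0.200, adjusted p = 0.0149) and CD58, whose change was lower in OCI-Ly7 (-0.48, SE 0.152, adjusted p = 0.0416). CD70 then stood at 0.44 (SE 0.148, adjusted p = 0.0518). For CD40, whose rise passed in TMD8 and not in OCI-Ly7, the difference did not pass (-0.09, 95% interval -0.37 to 0.19; -0.25 after scaling, -0.47 to -0.03, adjusted p = 0.0791). The median over the members was 0.06 as given and -0.09 after scaling, against 0.16 and 0.02 over all genes. The difference for TNFRSF13C passed in all 12 fits that left out 1 library. That for TNFRSF13B was lost without the first TMD8 library of day 0 (adjusted p = 0.0709), the second TMD8 library of day 6 (adjusted p = 0.0512) or the second OCI-Ly7 library of day 0 (adjusted p = 0.0595). That for CD70 held only without the first or second OCI-Ly7 library of day 3 (adjusted p = 0.0109 each) or the second OCI-Ly7 library of day 6 (adjusted p = 0.0486), and ranged from 0.0606 to 0.111 without each of the other 9. PRMT5 differed as well, by -0.77 (adjusted p = 0.01). So did PAX5 (1.48, adjusted p = 0.00122) and CD22 (1.20, adjusted p = 0.002), the only 2 of 5 tested B cell markers that passed. The median difference over these 5 markers was 0.21 as given. The part of PRMT5 and of these markers in the members' differences was not tested. PAX5, a transcription factor of B cell identity, had 11.3 and 11.0 FPKM at day 6 against 8.05 and 6.86 FPKM at day 0 in OCI-Ly7, and 4.45 and 5.35 FPKM against 10.7 and 10.1 FPKM in TMD8.

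**Figure D3:**
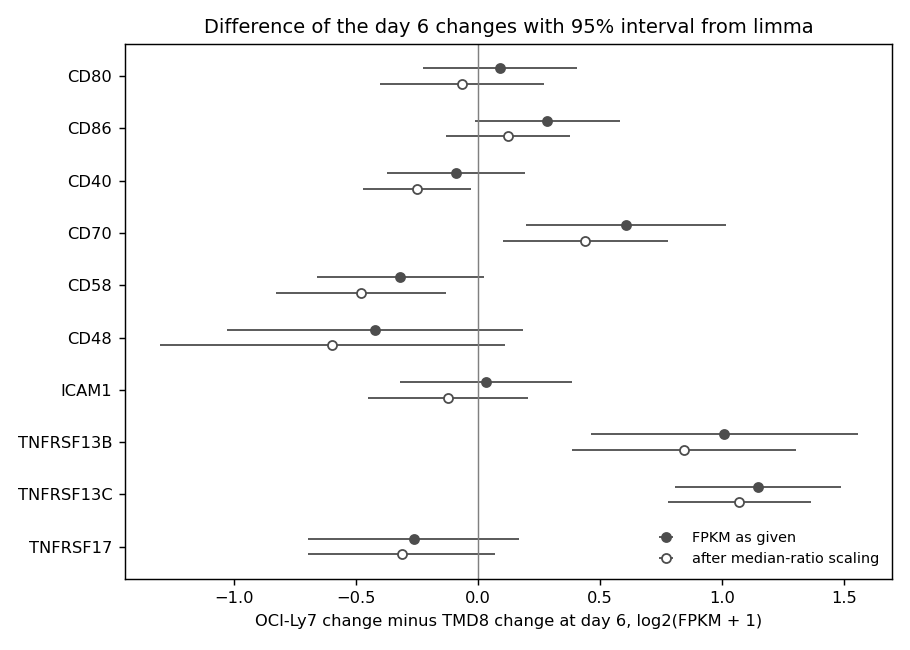
OCI-Ly7 change minus TMD8 change at day 6 on log2(FPKM + 1) for each member, with 95% intervals from limma; filled points are FPKM as given and open points follow median-ratio scaling. TNFRSF13C and TNFRSF13B lie to the right of 0 under both scalings (1.15 and 1.01 as given, 1.07 and 0.84 after scaling), and CD58 lies to the left.

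The members were compared by chromosome and by their pattern over the libraries. They lie on chromosomes 1, 3, 16, 17, 19, 20 and 22, with CD58 and CD48 on 1, CD80 and CD86 on 3, and CD70 and ICAM1 on 19. Over the 6 libraries of a line, correlations of log2(FPKM + 1) between members were computed for all pairs as a description; libraries share depth and the common shift. In OCI-Ly7 CD70 and TNFRSF13B ran together (Pearson's r 0.97 as given and 0.961 after scaling), as did CD40 and CD86 (0.94 and 0.965). In TMD8 CD40 and CD80 ran together (0.94 and 0.99). All pairs among CD40, CD70, CD80, CD86, CD58 and CD48 there lay at 0.267 to 0.94 as given and 0.721 to 0.99 after scaling. CD40 and CD80 ran against TNFRSF13C after scaling (-0.965 and -0.984), less so as given (-0.621 and -0.342). CD70, CD86, CD58, CD48 and ICAM1 ran against TNFRSF13C after scaling as well (-0.801 to -0.897), while TNFRSF13B stood at 0.378 and TNFRSF17 at -0.199. As given, those 5 members ran from -0.817 (CD58) to 0.305 (ICAM1). High values were common over these 6 libraries: in TMD8, 305 of 7045 genes with a mean of at least 5 FPKM correlated with CD40 above 0.9, 609 with TNFRSF13B and 805 of 7046 with TNFRSF13C. The genes most like CD40 in TMD8 were DNAJB6 (0.996), RPS26P11 (0.996) and LYRM4 (0.996). Among those most like TNFRSF13B were TUBB4A (0.988) and SPSB3 (0.987), and those most like TNFRSF13C were CXXC5 (0.998), IDH3B (0.997) and EML2 (0.996).

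Genes around the members were read from 6 lists with 65 genes: other TNF receptors, TNF ligands, TRAF and adaptor genes, other B7 and coinhibitory genes, the SLAM family with CD2 partners, and adhesion and integrin genes. At day 6 against day 0 on FPKM as given, TNF receptors had 0 higher and 1 lower of 4 tested in OCI-Ly7 and 0 higher and 2 lower of 6 in TMD8. TNF ligands had no call among 4 tested in OCI-Ly7, and 1 higher and 1 lower of 4 in TMD8. TRAF and adaptor genes had 2 higher and 0 lower of 10 in OCI-Ly7, and 0 higher and 4 lower of 12 in TMD8. Other B7 and coinhibitory genes had 1 higher and 0 lower of 3 in OCI-Ly7, and 2 higher and 1 lower of 3 in TMD8. The SLAM list had no call among 3 tested in OCI-Ly7 and 1 in TMD8. Adhesion and integrin genes had 2 higher and 0 lower of 8 in OCI-Ly7, and 0 higher and 4 lower of 10 in TMD8. These counts stand beside 11.4% of all genes called in OCI-Ly7 (218 higher, 1034 lower) and 55.6% in TMD8 (407 higher, 5409 lower). After scaling the whole tables split into 739 higher and 887 lower in OCI-Ly7 and 1611 higher and 1409 lower in TMD8. After scaling TRAF and adaptor genes had 3 higher and 0 lower in OCI-Ly7, and 2 higher and 2 lower in TMD8. TNF receptors then had 1 higher and 1 lower in OCI-Ly7, and 0 higher and 1 lower in TMD8. TNF ligands had 2 higher and 0 lower in TMD8, B7 and coinhibitory genes 2 higher and 0 lower, and adhesion and integrin genes 1 higher and 2 lower, and the other counts were as before scaling. List medians as given lay between -0.13 (SLAM family) and 0.09 (TNF ligands) in OCI-Ly7, against -0.13 for all genes, and between -0.34 (adhesion and integrin genes) and 0.35 (B7 and coinhibitory genes) in TMD8, against -0.31.

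LGALS9, which encodes the coinhibitory ligand galectin-9, rose in both lines. It had 11.9 and 10.3 FPKM at day 6 against 6.17 and 6.21 FPKM at day 0 in OCI-Ly7 (log2 change 0.75, adjusted p = 0.0345) and 37.4 and 43.5 FPKM against 21.1 and 17.9 FPKM in TMD8 (1.02, adjusted p = 0.00216). CD274, the coinhibitory ligand PD-L1, rose in TMD8, with 10.6 and 8.74 FPKM at day 6 against 7.47 and 7.25 FPKM at day 0 (0.35, adjusted p = 0.0312). LTA, which encodes lymphotoxin alpha, rose in TMD8 with 6.02 and 4.63 FPKM at day 6 against 2.01 and 1.12 FPKM (1.31, adjusted p = 0.0136). TRAF3, an adaptor that restrains signalling from CD40 and the BAFF receptor, fell in TMD8 with 13.5 and 14.95 FPKM at day 6 against 24.1 and 23.4 FPKM (-0.70, adjusted p = 0.00219). TNFRSF1B, a receptor for TNF (-0.88), ITGA4, an integrin chain (-0.56), and MAP3K7, the kinase TAK1 (-0.55), fell in TMD8 as well. In OCI-Ly7 the adaptors TRADD (0.80) and TRAF1 (0.72) and the adhesion molecules CD44 (0.59) and ICAM3 (0.58) rose. Each of these genes passed as given and after scaling in the same direction, with both libraries of day 6 beyond both of day 0.

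**Figure D4:**
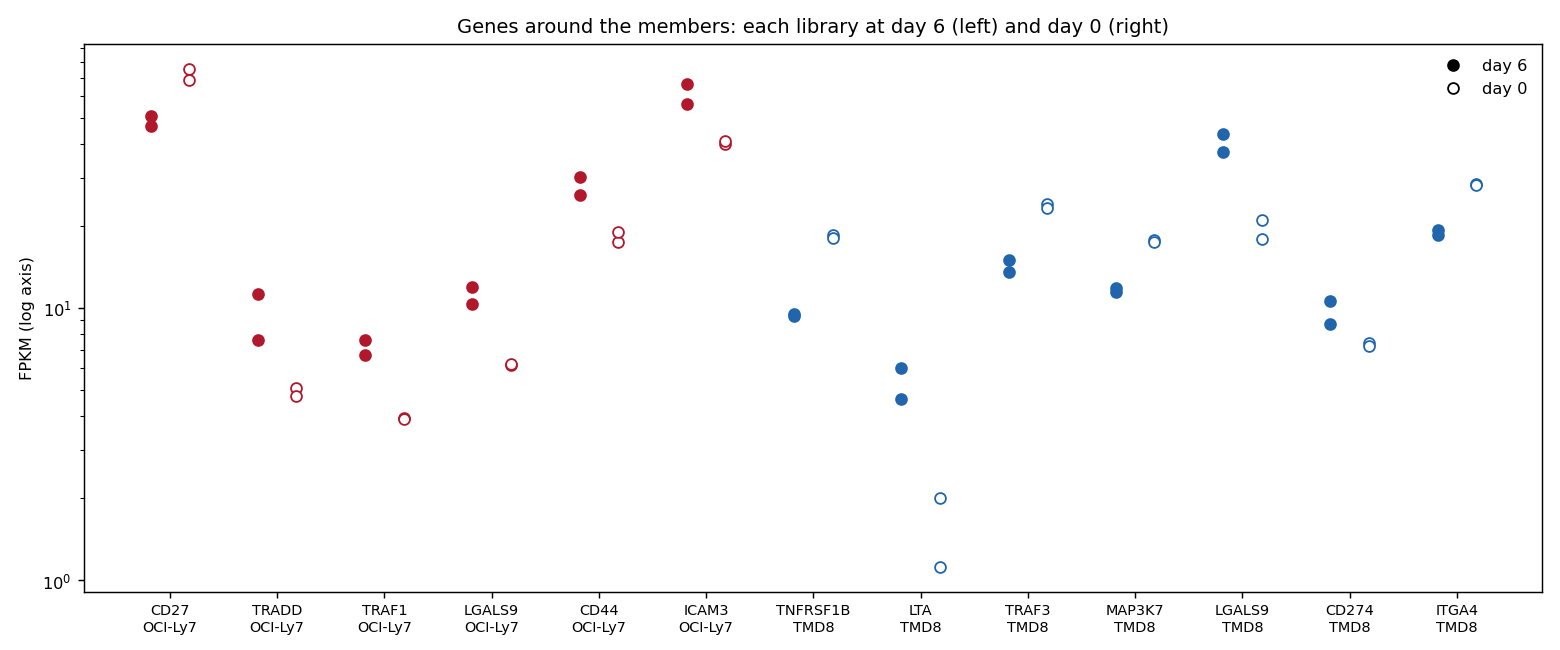
FPKM (log axis) of the named genes around the members that passed at day 6 against day 0 under both scalings, each library shown, day 6 filled on the left and day 0 open on the right of each gene, OCI-Ly7 in red and TMD8 in blue. LGALS9 is higher at day 6 in both lines, and TRAF3, TNFRSF1B, ITGA4 and MAP3K7 are lower at day 6 in TMD8.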

How the data were processed

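The labels give RNeasy Plus mini kits for RNA and the TruSeq RNA Library Prep kit of Illumina for the 12 libraries. The treatment protocol names other days than the titles, characteristics and design text, which give 0, 3 and 6 and were followed. The submitters' processing notes name HISAT, StringTie and the build hg19; tool versions are not given in the sources used here. Each line has 1 table, in which the authors deposited an FPKM value per gene and library.

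The test was limma (version 3.58.1, under R 4.3.3) with a mean-dependent trend, applied to log2(FPKM + 1). Genes needed a mean FPKM of at least 1 in the line, or in both lines for the difference between lines. All 3 days of a line were fitted together, which leaves 3 residual degrees of freedom. The Benjamini-Hochberg adjustment ran over every gene tested. For median-ratio scaling, the ratio of each tested gene to its geometric mean over libraries was taken, and a library's values were divided by the median of its ratios. Replicate numbers were not used as a block. Where 1 library was left out, FPKM was used as given and the lone library of its group was assumed to vary like the others. Also tried were equal FPKM sums, a pseudocount of 0.1, testing without a filter, a mean of at least 5 FPKM, no trend, a replicate block and a fit of the 2 compared days alone. The fits were tested on simulated data: of 100 genes changed by 1 on the log2 scale in each simulation, 68 of those in OCI-Ly7 (11016 genes) and 88 of those in TMD8 (10456 genes) were recovered for day 6 against day 0, and 67 for the difference between the lines at day 6 (9688 genes). Unchanged genes made up 2.5%, 9.05% and 5.85% of the calls in these simulations, so that the share in TMD8 was above the threshold of 0.05. The simulated noise was independent between genes and libraries, few genes were changed and no shift of all genes was added. In the TMD8 data 55.6% of genes passed at day 6 as given, so the simulated shares need not hold for the real tables.

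The members, PRMT5 and the B cell markers were always named. Of the other listed genes, those named were up to 4 per line and list with the largest change at day 6, past the threshold in the same direction under both scalings, with no overlap between the libraries. Some genes that these rules select are not reported here. Members and lists were chosen with earlier results of these data known. Gene overlaps come from GENCODE v29 (GRCh38), a build other than that of the tables, so no gene coordinates are printed.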

Additional observations from a re-analysis of the deposited data

Results flagged for a closer look

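The change at day 6 differed between OCI-Ly7 and TMD8 for 3 members, by the test of the difference itself (limma, OCI-Ly7 change minus TMD8 change on log2(FPKM + 1), 12 libraries). TNFRSF13C differed by 1.147 (SE 0.15, adjusted p = 0.003): it was at 1.20 and 1.57 FPKM in TMD8 at day 6 against 4.79 and 4.45 FPKM at day 0. TNFRSF13B differed by 1.008 (SE 0.241, adjusted p = 0.0187), with both day 6 libraries above day 0 in OCI-Ly7 and, on FPKM as given, below it in TMD8. After median-ratio scaling the TMD8 libraries of day 6 and day 0 overlapped, and the difference was 0.84 (adjusted p = 0.0149). On FPKM as given it was lost in 3 of the 12 fits that left out 1 library. CD70 differed by 0.6056 (SE 0.18, adjusted p = 0.0398), and under median-ratio scaling it no longer passed, at 0.44 (adjusted p = 0.0518). On FPKM as given the CD70 difference ranged from 0.53 to 0.69 over the fits that left out 1 library, and the call was lost in most of them. Of all 9688 genes tested, 24.7% passed this test.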

How the results depend on the processing

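Scaling decided most calls among members. For day 3 against day 0 in TMD8, 5 members passed as given and 0 after median-ratio scaling, after equal FPKM sums or with the replicate block. For day 6 against day 0, 3 passed in TMD8 as given and 5 after median-ratio scaling; in OCI-Ly7 the counts were 0 and 2. For day 6 against day 3, 0 passed in OCI-Ly7 as given, 2 after median-ratio scaling and 1 after equal FPKM sums; in TMD8 3 passed as given and 1 with the replicate block. For the difference between the lines at day 6, 2 passed with the replicate block against 3 without it. Deviations of libraries with the same number correlated between days at only -0.147 to 0.133 in both lines, so no strong shared deviation was seen. These correlations cannot tell whether libraries with the same number were paired in culture or handling.

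Leaving out each library in turn gave 0 to 6 members at day 3 in TMD8, 0 without any 1 library of day 0 or day 3. It gave 1 to 3 at day 6 against day 0, 1 without the first day 0 library, and 0 to 2 for day 6 against day 3, 0 without either day 3 library. For the difference at day 6 it gave 1 to 3, 1 without the first TMD8 library of day 0, the second TMD8 library of day 6 or the second OCI-Ly7 library of day 0. It gave 0 in every such fit for the comparisons within OCI-Ly7 and for the difference at day 3. Each of these fits used FPKM as given and leaves 1 group with 1 library. Calls that passed only after median-ratio scaling were not refitted in this way. These were CD70 and TNFRSF13B in OCI-Ly7, CD80, CD58 and TNFRSF17 at day 6 against day 0 in TMD8, and CD58 in the difference at day 6.

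Counts over all genes moved too. For day 3 against day 0 in TMD8, 4492 genes passed as given, 23 after median-ratio scaling, 36 after equal FPKM sums, 13 with the replicate block and 2705 without a filter. For day 6 against day 0, 5816 passed in TMD8 as given and 3020 after median-ratio scaling, and 1252 in OCI-Ly7 as given, 733 with the replicate block and 41 without a filter. For day 6 against day 3, 820 passed in TMD8 as given, 1324 after equal FPKM sums, 359 without a filter, 285 with these days alone and 58 with the replicate block. In OCI-Ly7 it was 24 as given, 964 after median-ratio scaling and 556 after equal FPKM sums. For the difference, 10 passed at day 3 as given, 36 without a filter and 5 with the replicate block, and 2396 at day 6 as given against 1391 among genes with a mean of at least 5 FPKM. The causes were not tested. Depth was not given, so no limit from it is stated; the lowest member values were those of TNFRSF17 and, at day 6, TNFRSF13C in TMD8.

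Some changes turned sign, none of them past the threshold after the turn. After median-ratio scaling these were, at day 3 in TMD8, CD70 (0.027), CD58 (0.21), CD48 (0.035), TNFRSF13B (0.13), TNFRSF13C (0.017) and ICAM1 (0.0091). At day 6 in TMD8 they were CD70 (0.25), CD86 (0.17) and ICAM1 (0.18). At day 3 in OCI-Ly7 they were CD40 (0.011), CD86 (0.0011) and ICAM1 (0.026), and at day 6 CD58 (0.064), TNFRSF13C (0.047) and ICAM1 (0.011). In the difference they were, at day 3, CD70 (-0.042), CD80 (-0.0040), CD48 (-0.083) and TNFRSF13C (-0.071), and at day 6 CD80 (-0.065) and ICAM1 (-0.12). With equal FPKM sums, among changes against day 0 and differences at day 6, they were CD58 (0.12) and TNFRSF13B (0.035) at day 3 in TMD8, CD40 (0.014), CD86 (0.0039) and ICAM1 (0.029) at day 3 in OCI-Ly7, and CD58 (0.021) and TNFRSF13C (0.0024) at day 6 in OCI-Ly7.

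Among the same results, the following changed sign on leaving out 1 library. At day 3 CD58 ranged from -0.17 to 0.028 in TMD8, and CD70 from -0.36 to 0.042, CD48 from -0.40 to 0.035 and ICAM1 from -0.24 to 0.036 in OCI-Ly7. At day 6 CD80 ranged from -0.026 to 0.054 in TMD8, and CD80 from -0.023 to 0.23, CD86 from -0.015 to 0.22, CD58 from -0.19 to 0.048 and TNFRSF17 from -0.017 to 0.16 in OCI-Ly7. In the difference at day 6 CD40 ranged from -0.19 to 0.0048, CD80 from -0.038 to 0.22 and ICAM1 from -0.10 to 0.17. A pseudocount of 0.1 changed no count of members.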
